A study of Mus musculus with 2 samples.

Results

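Non-contractile fibroblasts of the lung were chosen by their measured expression among cells sorted for the fluorescent reporter mCherry. A cell was kept when its mean value of Col1a2, Col3a1, Dcn and Mgp was 2 or more. Its mean of Acta2, Tagln and Myl9 and its mean of Cldn5, Cdh5, Ramp2 and Egfl7 had both to be below 2, and Ptprc had to be 0. The values were those deposited, the natural log of UMIs per 10000 in a cell plus 1. A UMI, or unique molecular identifier, marks 1 captured RNA molecule. This rule kept 186 of 1344 cells, or 13.8% (exact binomial 95% interval 12% to 15.8%), and these cells are called members here. The values that chose the members are described but support nothing further, and no test was made on them.

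The cells came from lungs of p16-FDR mice of the C57BL/6 strain at 20 to 22 months of age. These mice carry a FLP recombinase and a diphtheria toxin receptor fused to mCherry, and the strain's name ties the reporter to p16, a product of Cdkn2a. Cells with mCherry fluorescence were sorted and their RNA was counted one cell at a time from its 3' end. The 2 samples belong to 1 group, and cells without fluorescence and younger animals were not analysed here. The sources do not say where the construct sits, how many mice were pooled or which cells besides those that use the p16 locus may fluoresce.

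Cell names carried 2 library numbers that could not be tied to either sample, so all cells were treated as 1 sample and no difference was tested. Members made up 183 of 1145 cells in library 1, or 16% (13.9% to 18.2%), and 3 of 199 cells in library 2, or 1.51% (0.312% to 4.34%). What is said of the members therefore rests on library 1, and each count and the Cdkn2a rate were also taken in it alone. They had a median of 6551.5 UMIs and 2413 genes per cell, against 5666 UMIs and 2238 genes in the 1158 other cells. The libraries shared 0 cell barcodes. The other cells fell into 12 contractile cells, 596 endothelial cells, 440 cells with Ptprc and 110 remaining cells by the same genes.

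Fibroblasts make and turn over the connective tissue of the lung: they secrete collagens, proteoglycans and elastic fibres, the enzymes that cross-link or cut them, and signals that act on neighbouring epithelium, vessels and immune cells. In the mouse lung, alveolar fibroblasts lie in the walls of the air sacs and are known for Col13a1, Npnt and Itga8. Adventitial fibroblasts lie in the cuffs around airways and larger vessels and are known for Pi16, Col14a1 and Scara5. Contractile relatives, smooth muscle cells, myofibroblasts and pericytes, carry actin and myosin of muscle type. Levels below are rates, the summed UMIs of a gene over a class per 10000 UMIs of that class, with exact Poisson 95% intervals in parentheses. Intervals cover counting error only, since cells of 1 sample are not replicates. Levels are compared for the same gene between classes, not between genes.

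The collagen-type mean that chose the members ran from 2.02 to 4.87 with a median of 3.55. Of the 199 cells at 2 or more, 5 failed on the contractile mean alone, 3 on Ptprc alone, 4 on the endothelial mean alone and 1 on several criteria. The 3 members just inside the threshold had means of 2.02, 2.03 and 2.14, and the 3 cells just outside it had means of 1.89, 1.88 and 1.87. Few cells lay near it, with 6 members below 2.25 and 4 otherwise eligible cells from 1.75 up to 2, while 100 otherwise eligible cells had a mean below 1. The contractile mean was 0 in 90 members and below 0.5 in 143. Members just inside that limit had contractile means of 1.80, 1.70 and 1.47, and the excluded cells nearest to it had 2.32, 2.59 and 2.68.

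**Figure D1:**
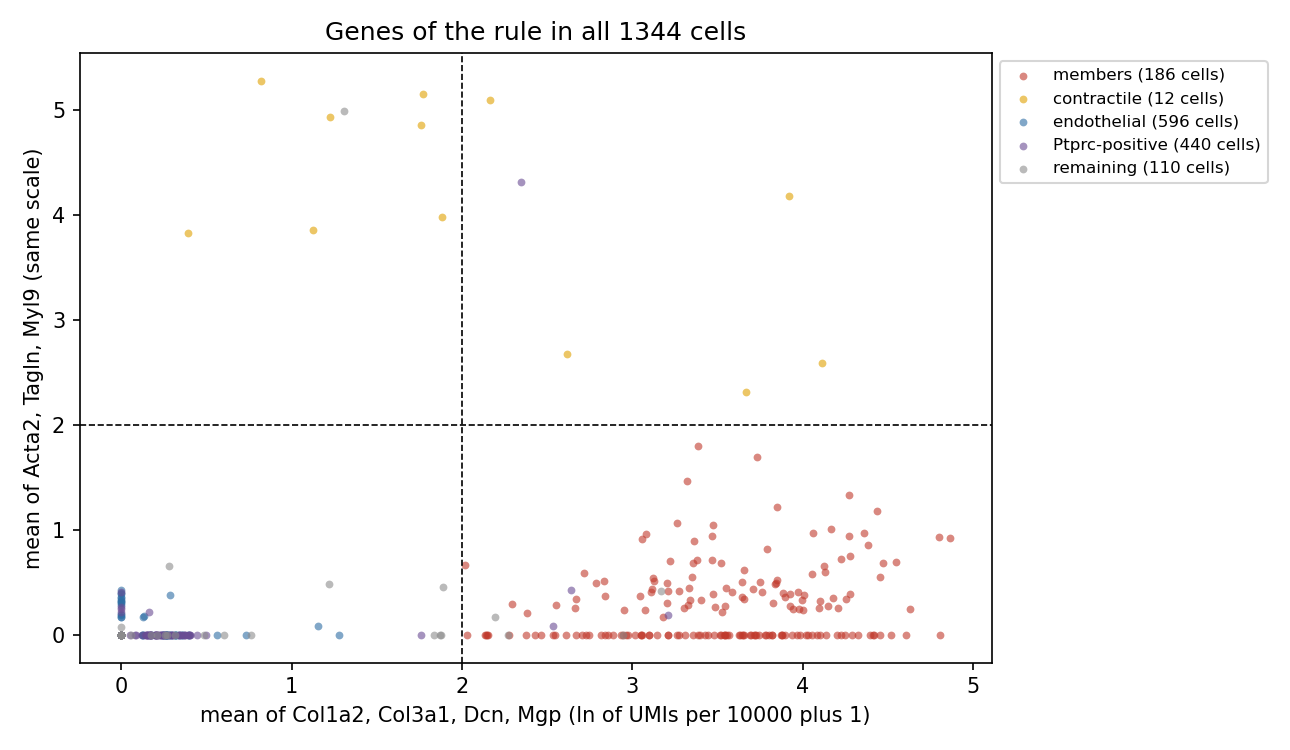
Each point is 1 of the 1344 cells; the x axis is the mean of Col1a2, Col3a1, Dcn and Mgp and the y axis the mean of Acta2, Tagln and Myl9, both as natural logs of UMIs per 10000 plus 1, and dashed lines mark the threshold of 2. The 186 members form the group at the lower right, 90 of them with a contractile mean of 0, and 5 of the 12 contractile cells lie above them at a collagen-type mean of 2 or more.

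The label was checked against 6 marker genes, of which Mgp is part of the rule and supports nothing. Inmt, an enzyme that methylates indole amines, had a UMI in 87.6% (82.0% to 92.0%) of members at a rate of 25.5 (24.7 to 26.4), against 1.51% of endothelial cells at 0.0731. Endothelial cells had a median of 5246.5 UMIs, against 6551.5 in members. Mgp, a matrix protein that restrains calcification, had a UMI in 98.4% (95.4% to 99.7%) of members at 223 (220.1 to 225), against 2.23 in all other cells. Gpc3, a cell-surface proteoglycan, was detected in 67.2% (59.95% to 73.9%) of members at 3.91 (3.58 to 4.27), against 0.0796 in other cells. Inmt and Gpc3, which the rule did not use, thus marked most members.

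The other markers were patchy. Apod, a secreted lipid carrier, had a UMI in 53.2% (45.8% to 60.6%) of members, with a median of 1.43 per 10000 over cells and 312 in the highest cell. Limch1, an actin-binding protein, was detected in 34.9% (28.1% to 42.3%) and Mmp3, a matrix-cutting enzyme, in 18.8% (13.5% to 25.2%). In endothelial cells those shares were 0%, 3.86% and 0.168%. In contractile cells Limch1 had a UMI in 6 of 12 at 2.57, against 4.0 in members. The 5 markers outside the rule were thus present in members, Limch1 and Mmp3 in a minority of them, and the label was kept. In the 3 members of library 2, Inmt was at 42.8 (35.3 to 51.5) and Apod at 48.6 (40.5 to 57.8), against 25.2 and 7.92 in the 183 of library 1, but 1 of the 3 cells held all 127 Apod UMIs.

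Endothelial and immune genes were near 0 in members. Summed over 12 endothelial genes, members had a median of 0 and at most 7.41 UMIs per 10000, with 139 of 186 cells at 0 and 3 of the 12 genes without a UMI in any member. Summed over 13 immune genes, they had a median of 0 and at most 12.1, with 131 cells at 0 and 4 genes without a UMI. Of 12 epithelial genes 4 had none, and the summed median of 1.66 came mostly from Scgb1a1, the secretory protein of club cells, with a UMI in 65.1% of members and 47.3% of endothelial cells. The source of these UMIs was not tested. The 10 mesothelial genes had a summed median of 0 and at most 125, with 107 cells at 0. Summed over 13 pericyte genes, members had a median of 3.49 and at most 21.6, with 35 cells at 0 and 3 genes without a UMI, against a median of 11.5 in contractile cells. Only 3 of the 13 pericyte genes had a UMI in 10% or more of members or of all other cells. All 3 were higher in members, but genes rare elsewhere pass that filter through members, so their direction supports nothing. The summed level reached 292 in the remaining cells. Against contractile cells, 7 of 10 pericyte genes compared were lower in members. Rgs5 had 0 UMIs in members, while Pdgfrb, a receptor that fibroblasts share with pericytes, was at 1.5 (1.30 to 1.73).

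For the comparison with all other cells, 8248 genes had a UMI in 10% or more of the cells of 1 side. Of these, 1304 were at least 2-fold higher in members than in all other cells, or 15.8%, and 1504 were at least 2-fold lower, or 18.2%. Counts for gene lists below are read against these shares, and the median of all genes was -0.08 on the log2 scale. A gene seen in under 10% of other cells could be compared only through members. For lists of such genes, a high count was in part fixed by this filter and is no separate support. Of the 25 genes with the largest ratios among those in at least 25% of members, Scara5, a ferritin receptor, led with 163 UMIs in 65 members and 2 UMIs in all other cells. Its rate was 1.24 (1.05 to 1.44) in members, a ratio of 520.5 (142 to 4334) to other cells. Gdf10, a BMP-family ligand also called BMP3b, had 138 UMIs in 58 members and 2 in other cells, a ratio of 441 (119.7 to 3675).

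Some of that set are secreted. Clec3b, the plasminogen-binding protein tetranectin, was at 21.4 (20.6 to 22.2) in members and 0.0974 in other cells. The collagen-binding proteoglycan Lum was at 3.79 (3.47 to 4.14) in members and 0.0202 in other cells, and its relative Dcn, which is part of the rule, at 89.8 (88.2 to 91.5) and 0.482. Dpt, a small protein that binds decorin, was at 7.0 (6.56 to 7.47) in members and 0.0570 in other cells. These genes are secreted into the matrix, and for Dcn the difference is one the rule asked for.

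Others of the 25 act inside or at the surface of the cell. Cygb, a haem protein of the globin family known from fibroblasts, was at 5.69 (5.29 to 6.11) in members and 0.0511 in other cells. Abca8a, a membrane transporter, was at 4.66 (4.30 to 5.04) in members and 0.0416 in other cells, and Abca8b at 0.796 (0.651 to 0.964) and 0.00594. Dpep1, a membrane dipeptidase, was at 9.28 (8.76 to 9.81) in members and 0.0855 in other cells. Meg3, a long noncoding RNA of an imprinted cluster, had 213 UMIs in 55 members and 6 in all other cells.

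All 5 fibrillar collagen genes compared were at least 2-fold higher in members than in other cells, with a median ratio of 4.88 on the log2 scale. Col1a1, the first chain of type I collagen and not part of the rule, was at 14.6 (14 to 15.3) in members with a UMI in 97.3% of them, against 0.245 in other cells. Col5a1 and Col5a2, chains of the collagen that seeds fibrils, were at 1.64 (1.43 to 1.87) and 2.16 (1.92 to 2.43) in members, against 0.0451 and 0.0736 in other cells. Of 14 other collagens 11 were higher and 0 lower. The 3 chains of the beaded filament collagen VI were at 4.87 (4.50 to 5.26) for Col6a1, 4.07 (3.73 to 4.42) for Col6a2 and 4.79 (4.43 to 5.18) for Col6a3 in members, against 0.122, 0.113 and 0.129 in other cells.

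Of 19 proteoglycan genes in the data, 16 passed the filter, and all 16 were higher in members, with a median log2 ratio of 5.36. Bgn and Ogn, small leucine-rich proteoglycans that bind collagen, were at 29.2 (28.3 to 30.1) and 21.1 (20.3 to 21.9) in members, against 0.740 and 0.479 in other cells. Fmod and Omd, of the same family, had 128 and 47 UMIs in members, against 4 and 2 in all other cells. Omd is known from bone and Fmod from tendon, and each had a UMI in 19.9% of members. Vcan, the large chondroitin sulfate proteoglycan versican, was at 1.08 (0.914 to 1.28) in members and 0.0238 in other cells.

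Elastic fibre genes were higher in 14 of 16 cases and lower in 1. Fbn1, fibrillin of the microfibrils, was at 3.53 (3.22 to 3.87) in members and 0.0582 in other cells. The fibulins Fbln1 and Efemp1, which bridge elastin and microfibrils, were at 4.61 (4.25 to 4.99) and 8.31 (7.82 to 8.81) in members, against 0.0309 and 0.120 in other cells. Ltbp4, which anchors latent TGF-beta and guides elastic fibre assembly, was at 9.51 (8.99 to 10.1) in members and 0.287 in other cells. The gene that was lower was Emilin2, an elastin interface protein, at 0.394 (0.295 to 0.517) in members and 1.06 in other cells, where Ptprc-positive cells had 2.0.

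Adhesive and basement membrane genes were higher in 16 of 19 cases and lower in none. Lama2, a laminin chain, was at 2.81 (2.53 to 3.12) in members and 0.0392 in other cells. Sparcl1, a collagen-binding glycoprotein, was at 30.6 (29.6 to 31.5) in members and 1.23 in other cells. Fibronectin, Fn1, was an exception at 5.38 (4.99 to 5.79) in members and 6.76 in other cells, of which Ptprc-positive cells had 12.9 and endothelial cells 0.0281. Its ratio of 0.796 lay within the 2-fold limit. Thbs1, an activator of latent TGF-beta, was at 1.08 (0.907 to 1.27) in members, 22.9 in contractile cells and 2.56 in Ptprc-positive cells.

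Collagen maturation genes were higher in 16 of 23 cases and lower in none. The chaperone Serpinh1, which binds procollagen, was at 12.5 (11.9 to 13.1) in members and 1.20 in other cells. Pcolce, which speeds removal of the procollagen tail, was at 8.88 (8.38 to 9.41) in members and 0.129 in other cells. The cross-linking oxidases Lox and Loxl1 were at 1.12 (0.949 to 1.32) and 3.43 (3.12 to 3.76) in members, against 0.0238 and 0.0641 in other cells. Ppib, a proline isomerase of the endoplasmic reticulum, was at 6.96 (6.51 to 7.42) in members and 4.0 in other cells.

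Proteases and their inhibitors were higher in 24 of 29 cases and lower in 1. Mmp2, a gelatin-cutting metalloprotease, was at 5.34 (4.95 to 5.75) in members with a UMI in 84.9%, against 0.0641 in other cells. Mmp3 was at 3.47 (3.16 to 3.80) in members, but 35 cells carried all of it, and other cells were at 0.00713 (0.00262 to 0.0155). Of the metalloprotease inhibitors, Timp1 was at 4.81 (4.44 to 5.20) in members and 0.0368 in other cells, Timp2 at 15.3 (14.7 to 16) and 6.37, and Timp3 at 22.7 (21.9 to 23.5) and 3.71. Timp2 and Timp3 were shared with endothelial cells, which had 9.41 and 7.64, while Timp1 had 0 UMIs in them. Cst3, the cysteine protease inhibitor cystatin C, had a UMI in every member at 60.2 (58.8 to 61.5), against 26.9 in other cells.

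**Figure D2:**
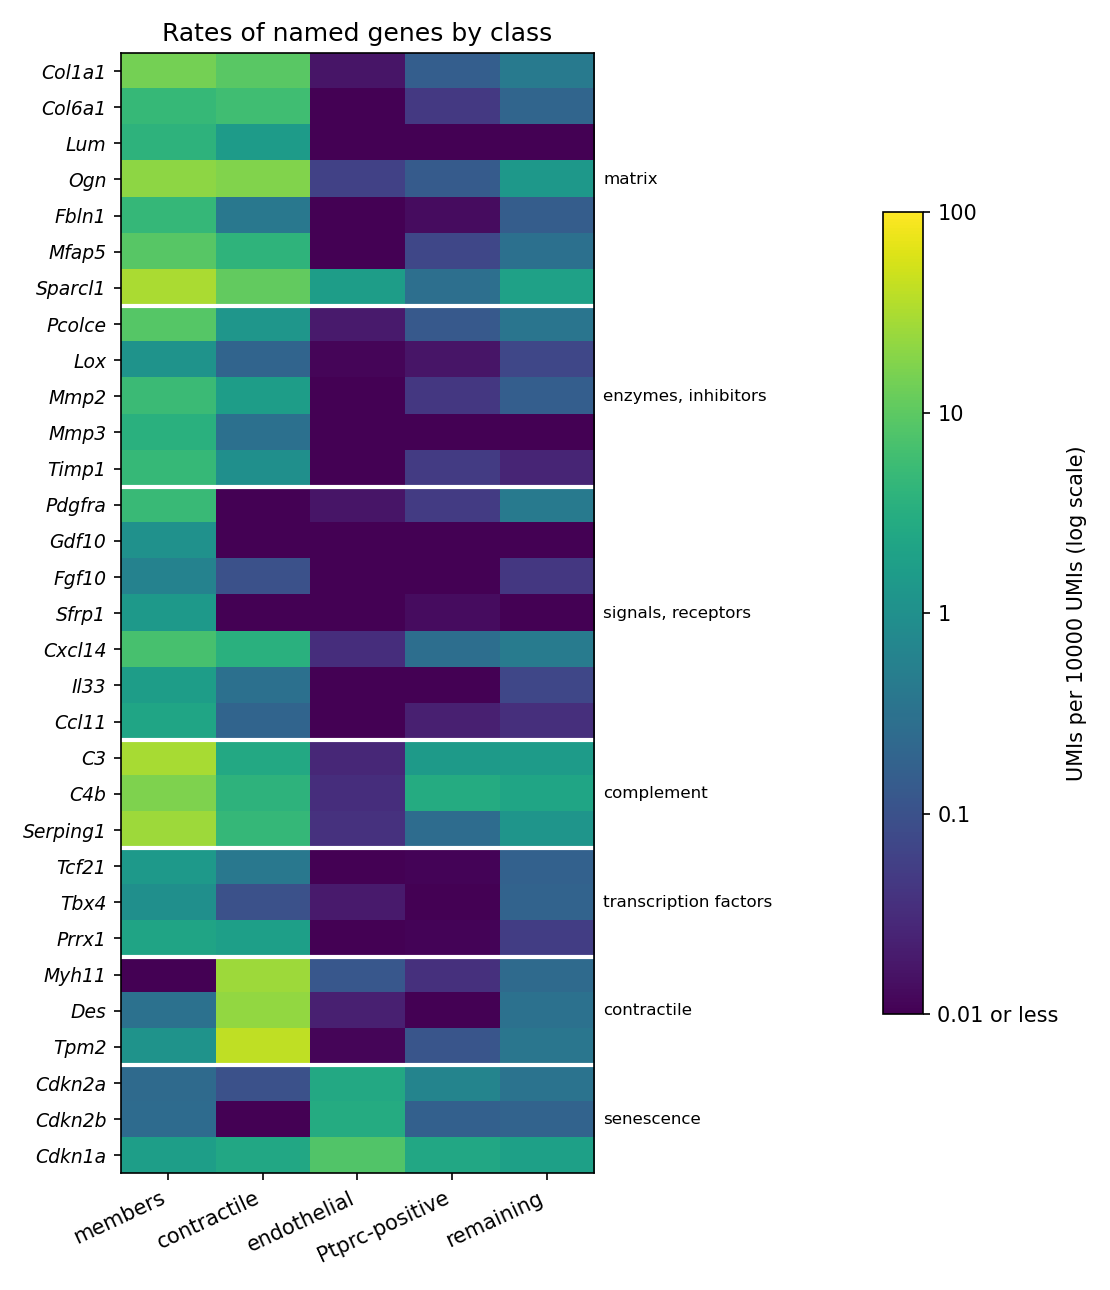
Rows are genes grouped by role, columns the 5 classes with members at the left, and colour the rate in UMIs per 10000 UMIs on a log scale; rates of 0.01 or less share the darkest colour. Genes of matrix, signals and complement are brightest in members, except Col6a1, which is at 4.87 in members and 5.93 in contractile cells; Myh11 is at 0 UMIs in members, and Cdkn2a, Cdkn2b and Cdkn1a are brightest in endothelial cells.

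Among 34 growth factor genes compared, 24 were higher in members and 6 lower. Fgf7 and Fgf10, ligands that act on lung epithelium, were at 0.819 (0.672 to 0.989) and 0.599 (0.474 to 0.747) in members, against 0.0143 and 0.00831 in other cells. The WNT ligand Wnt5a was at 0.501 (0.387 to 0.637) in members with 6 UMIs in all other cells, and Bmp4 at 1.20 (1.02 to 1.40) in members and 0.131 in other cells. Csf1, the growth factor of macrophages, was at 1.21 (1.03 to 1.42) in members and 0.164 in other cells. Of the ligands that were lower, Pdgfb, the PDGF chain made by endothelium, had 3 UMIs in 1 member and a rate of 3.74 in endothelial cells. Fgf1 was at 0.0607 (0.0262 to 0.120) in members and 2.16 in endothelial cells.

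Receptor genes were higher in members in 19 of 32 cases and lower in 6. Pdgfra, the PDGF receptor by which fibroblasts are often isolated, was at 5.09 (4.71 to 5.49) in members with a UMI in 81.2% (74.8% to 86.5%), against 0.0879 in other cells. Ddr2, a receptor for fibrillar collagen, was at 2.60 (2.33 to 2.89) in members and 0.0428 in other cells. Ednra and Ednrb, the 2 endothelin receptors, went opposite ways: Ednra was at 1.51 (1.31 to 1.73) in members and 0.00281 in endothelial cells, and Ednrb at 0.0228 (0.00469 to 0.0665) in members and 15.2 in endothelial cells.

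Of 16 secreted antagonists of WNT and BMP signals in the data, 11 passed the filter. All 11 were higher in members, with a median log2 ratio of 5.13, a count that the filter in part fixed. Sfrp1, which binds WNT ligands, was at 1.40 (1.21 to 1.62) in members and 0.00831 in other cells. Nbl1, which binds BMP ligands, was at 18.4 (17.7 to 19.1) in members with a UMI in 96.8%, against 0.631 in other cells. Dkk3 was at 2.03 (1.80 to 2.29) in members and 0.0582 in other cells, and Wif1, another WNT-binding protein, at 1.09 (0.921 to 1.29) in 30 members and 0.0428 in other cells. Of 5 genes for IGF-binding proteins, 4 were higher: Igfbp4 was at 23.4 (22.6 to 24.2), Igfbp5 at 13.8 (13.2 to 14.4) and Igfbp6 at 27.5 (26.7 to 28.4) in members, against 1.13, 0.211 and 0.415 in other cells. Igfbp7 was the exception at 38.0 (37.0 to 39.1) in members and 80.1 in endothelial cells.

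Of 11 cytokine and chemokine genes compared, 7 were higher in members and 2 lower. Ccl11, the eosinophil attractant eotaxin, was at 2.22 (1.98 to 2.49) in 59 members and 0.0166 in other cells. Il33, an alarmin that acts on innate lymphoid cells, was at 1.67 (1.46 to 1.90) in 92 members and 0.0178 in other cells. Cxcl14 was at 6.82 (6.38 to 7.28) in members and 0.239 in other cells, and Cxcl12, which retains leukocytes, at 3.41 (3.10 to 3.74) in members and 3.35 in endothelial cells.

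Il6, a cytokine often counted among the secretions of senescent cells, had a UMI in 15 of 186 members (8.06%, 4.58% to 13.0%) at a rate of 0.470 (0.361 to 0.603), and 1 cell gave 23 of its 62 UMIs, so that the rate without it was 0.299. All other cells were at 0.139 (0.115 to 0.167) and Ptprc-positive cells at 0.271 (0.220 to 0.330), an interval that holds the members' rate without that cell. Contractile cells were at 0.0989 (0.00250 to 0.551) from 1 UMI, so no difference from members was read. Il1b had 1 UMI in members and a rate of 3.41 in Ptprc-positive cells. Cxcl1, a neutrophil attractant that stood higher in members than in other cells pooled but lower than in the unweighted mean of the other 4 classes, was at 2.07 (1.83 to 2.33) in 51 members and 1.60 in Ptprc-positive cells. Of its 156 UMIs in contractile cells, 155 came from 1 cell. Cxcl2 was at 0.0683 (0.0312 to 0.130) in members and 15.2 in Ptprc-positive cells.

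Of 18 complement genes compared, 11 were higher in members and 6 lower. C3, the central component, was at 29.7 (28.8 to 30.7) in members with a UMI in 92.5%, against 0.917 in other cells, and C4b was at 16.8 (16.1 to 17.5) and 1.60. The protease C1s1 was at 4.85 (4.49 to 5.25) in members and 0.0511 in other cells, and its inhibitor Serping1 at 26.3 (25.5 to 27.2) and 0.348. The 3 chains of C1q, which macrophages make, had 0 UMIs for C1qa, 2 for C1qb and 4 for C1qc in members, while Ptprc-positive cells were at 20.7, 20.01 and 13.4. The other genes that were lower were Cfp, which stabilises the C3 convertase, at 0.0303 (0.00827 to 0.0777) in members and 2.0 in other cells, the lectin-pathway protease Masp1 at 0.0379 (0.0123 to 0.0885) and 0.185, and the extracellular chaperone Clu at 1.12 (0.949 to 1.32) and 5.18.

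Genes of antigen presentation were mostly lower in members than in other cells. Of 11 MHC class I genes compared, 0 were higher and 8 were at least 2-fold lower in members, with a median log2 ratio of -1.45. The heavy chain H2-D1 was at 7.30 (6.84 to 7.77) in members, 35.9 in endothelial cells and 17.3 in Ptprc-positive cells, and H2-K1 at 5.67 (5.27 to 6.09), 20.9 and 12.5. Contractile cells were at 6.23 for H2-D1 and 3.56 for H2-K1, and against them 3 of 11 genes were higher in members and 0 lower. Heavy-chain genes are alike in sequence, and how the authors' counting split their reads is not known. Interferon-response genes did not share this pattern, with 6 of 15 higher and 2 lower: Ifitm3, which blocks virus entry, was at 24.9 (24.1 to 25.8) in members and 8.95 in other cells. Ifit3 was at 0.645 (0.515 to 0.797) in members, and the rate was 0.191 without the cell that had most of it.

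Lipid, retinoid and detoxification genes were mixed. Of 20 lipid and retinoid genes, 11 were higher in members and 3 lower. Rbp4, a carrier of retinol outside the cell, was at 7.02 (6.58 to 7.49) in members and 0.121 in other cells, and Aldh1a1, which makes retinoic acid, at 4.82 (4.45 to 5.21) in members and 0.354 in other cells. Lrat, which esterifies retinol for storage, was at 2.0 (1.77 to 2.26) in 62 members and 0.0249 in other cells. Cd36, a fatty acid receptor of capillaries, had 0 UMIs in members and a rate of 22.8 in endothelial cells. Of 29 redox genes, 12 were higher and 4 lower. The alcohol dehydrogenase Adh1 was at 2.31 (2.05 to 2.58) in members and 0.0249 in other cells, and Fmo2, a lung monooxygenase, at 20.9 (20.1 to 21.7) and 1.24.

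Transcription factors of mesenchyme were higher in 26 of 35 cases and lower in 2. Tcf21 and Tbx4, factors of lung mesenchyme, were at 1.48 (1.28 to 1.70) and 0.994 (0.831 to 1.18) in members, against 0.0368 and 0.0380 in other cells. Prrx1 and Twist2, factors of limb and skin mesenchyme as well, were at 2.14 (1.90 to 2.40) and 0.501 (0.387 to 0.637) in members, against 0.0344 and 0.00594 in other cells. Gli1, a factor and target of hedgehog signals, was at 0.341 (0.249 to 0.457) in members and 0.00594 in other cells, and the hedgehog receptor Ptch1 at 2.35 (2.10 to 2.63) and 0.297. Immediate-early genes, which also respond to tissue dissociation, were at least 2-fold higher in 7 of 28 cases and lower in 2. Fos was at 27.4 (26.5 to 28.3) in members and 7.39 in other cells and Egr1 at 14.4 (13.8 to 15.1) and 2.47, while Klf2, a factor of flow-exposed endothelium, was at 2.62 (2.35 to 2.92) in members and 11.6 in endothelial cells. The part of dissociation in these levels was not tested.

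The contractile cells were taken as the nearest comparison, but they were 12 cells with 101152 UMIs in all, each from library 1. Only 5 of the 12 had a collagen-type mean of 2 or more, and their median was 1.83, against 3.55 in members. Of 7837 genes compared, 1102 were at least 2-fold higher in members, or 14.1%, and 1345 were at least 2-fold lower, or 17.2%. Very few of the 12 cells suffice to pass the 10% filter, so a gene could enter only through the side where it is high. Of the 7837 genes, 515 had 0 UMIs on 1 side, which was set at 3 counts. The rule fixed Acta2 and Tagln, which were at 0.660 (0.529 to 0.814) and 0.387 (0.288 to 0.509) in members, against 172 (164 to 179.9) and 132 (125 to 139) in contractile cells. Of 12 contractile genes compared 11 were lower in members. Myh11, the smooth muscle myosin heavy chain, had 0 UMIs in 186 members, a rate of up to 0.0228 by 3 UMIs over the class, and 26.0 (23 to 29.3) in contractile cells. Cnn1 and Actg2, also of smooth muscle, had 0 UMIs in members as well, with 7.71 (6.10 to 9.62) and 6.03 (4.61 to 7.75) in contractile cells. Tpm2, a muscle tropomyosin, was at 1.15 (0.977 to 1.35) in members and 40.9 (37.1 to 45.1) in contractile cells, and Des, the intermediate filament desmin, at 0.311 (0.223 to 0.422) and 22.3 (19.5 to 25.5).

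Fibrillar collagens did not divide members from contractile cells. Of 5 compared, 0 were at least 2-fold higher in members and 1 was lower, Col5a3, at 0.288 (0.204 to 0.396) in members and 0.593 (0.218 to 1.29) in contractile cells. That difference turned to a higher level in members when cells with markers of several lineages were left out. Col1a1 was at 14.6 (14 to 15.3) in members and 9.39 (7.60 to 11.5) in contractile cells, and Col5a2 at 2.16 (1.92 to 2.43) and 2.77 (1.84 to 4.0). Bgn was at 29.2 (28.3 to 30.1) in members and 25 (22 to 28.3) in contractile cells, and Sparc, a collagen-binding glycoprotein, at 27.6 (26.7 to 28.5) and 30.3 (27.0 to 33.8). Collagen XVIII, a basement membrane collagen encoded by Col18a1, was lower in members, at 0.705 (0.569 to 0.864) against 4.75 (3.50 to 6.29) in contractile cells.

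Genes of adventitial fibroblasts and complement were among those that did divide the 2 classes. All 19 adventitial genes compared were at least 2-fold higher in members, as were 10 of 13 complement genes, with 2 lower. Other lists did so in part. Of 19 alveolar genes 10 were higher and 1 lower, and of 30 proteases and inhibitors 16 were higher and 5 lower. For lipid and retinoid genes the counts were 11 and 2 of 20, and for redox genes 12 and 1 of 28. Pdgfra had 0 UMIs in contractile cells, so its rate was at least 17.2-fold higher in members, with 3 UMIs over the class set as the floor. Dpep1 was at 9.28 (8.76 to 9.81) in members and 0.0989 (0.00250 to 0.551) in contractile cells, Inmt at 25.5 (24.7 to 26.4) and 1.09 (0.543 to 1.95), and Gpc3 at 3.91 (3.58 to 4.27) and 0.198 (0.0239 to 0.714). C3 was at 29.7 (28.8 to 30.7) in members and 2.57 (1.68 to 3.77) in contractile cells. Some genes of the other lists were lower. Thbs1 was at 1.08 (0.907 to 1.27) in members and 22.9 (20.1 to 26.1) in contractile cells. The monocyte attractant Ccl2 had 63 UMIs in 16 members and 208 in 2 contractile cells, of which 206 came from 1 cell, so no difference was read from it. The small heat shock protein Hspb1 had 5.89 (5.49 to 6.32) in members and 40.5 (36.7 to 44.7) in contractile cells. Of the peribronchial list, 1 of 8 genes was higher in members and 6 lower. Hhip, a decoy of hedgehog ligands, was at 1.11 (0.935 to 1.30) in members and 3.46 (2.41 to 4.81) in contractile cells, and was higher in members when cells with markers of several lineages were left out. Since 12 cells are few, each named gene was also compared without the contractile cell that had most of its UMIs. Of 87 past 2-fold with a UMI in both classes, 4 turned to the opposite direction (Ccl2, Col5a3, Cxcl1 and Hhip) and 2 came under 2-fold (Aspn and Nfkbia). In another 18, all higher in members, contractile cells had 0 UMIs left. Thbs1 was at 13.6 (11.3 to 16.3) in contractile cells without that cell, still above members.

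Cdkn2a, the gene that the strain's name refers to, lies on chromosome 4 at 89274471 to 89294653 on the minus strand of mm10, next to Cdkn2b at 89306299 to 89311039 on the same strand. Cdkn2a encodes the cell-cycle inhibitor p16 and, from another first exon, p19Arf, and 3' counts do not separate the transcripts. A Cdkn2a UMI was seen in 12 of 186 members, or 6.45% (3.38% to 11%), at a rate of 0.243 (0.166 to 0.343). In all other cells it was seen in 437 of 1158, or 37.7%, at 1.40 (1.32 to 1.48). Endothelial cells had 2.55 (2.39 to 2.73), Ptprc-positive cells 0.638 (0.558 to 0.725), remaining cells 0.334 (0.237 to 0.459) and contractile cells 0.0989 (0.00250 to 0.551), the last from 1 UMI. The members' interval overlapped those of the remaining and contractile cells and lay below those of endothelial and Ptprc-positive cells.

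With each cell thinned to 2500 UMIs, the expected share with a Cdkn2a UMI was 3.05% in members and 23% in other cells. The 32 UMIs were uneven: 3 members held 8, 6 and 6 of them, 3 held 2 each and 6 held 1 each. One of the cells with 6 was in library 2, where 1 of 3 members had the gene, and the rate in library 1 alone was 0.201 (0.131 to 0.295). Without the cell that had 8, the rate was 0.184, and without the 45 members that carried markers of several lineages it was 0.156. Of those, 42 were marked through the contractile list, and with that list not used the rate was 0.247. Members with a Cdkn2a UMI were deeper, with a median of 10280 UMIs against 6394 in the 174 others. Of them 8 of 12 also had a UMI of 1 or more of 16 endothelial genes, as did 79 of the 174 others. Cdkn2a had 32 UMIs in members and 909 in endothelial cells, and the endothelial receptor Kdr had 2 and 8432. The source of the Cdkn2a UMIs in members was not tested.

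Cdkn2b, which encodes the related inhibitor p15, had a UMI in 14 of 186 members (7.53%, 4.18% to 12.3%) at a rate of 0.25 (0.172 to 0.351), against 2.89 (2.72 to 3.07) in endothelial cells. Both genes were found in 6 members, where the product of their shares gives 0.903 cells. That product takes no account of depth, and members with a Cdkn2b UMI were also deeper. Their median was 9350.5 UMIs, against 6371.5 in the 172 others. Cdkn1a, the p53 target that encodes the inhibitor p21, had a UMI in 57 of 186 members (30.6%, 24.1% to 37.8%) at 1.72 (1.5 to 1.96), against 8.15 (7.85 to 8.45) in endothelial cells, 2.53 (2.37 to 2.70) in Ptprc-positive cells and 2.47 (1.60 to 3.65) in contractile cells. The members' interval again overlapped those of the contractile cells and of the remaining cells, which were at 1.90 (1.65 to 2.17). Of 20 senescence genes compared 2 were higher and 8 lower in members than in other cells, and of 18 p53 targets 2 were higher and 6 lower. The senescence genes that were higher were Cdkn1c, which encodes the inhibitor p57, at 1.51 (1.31 to 1.73) in members and 0.129 in other cells, and Cdkn2c, which encodes p18, at 0.485 (0.374 to 0.620) and 0.125.

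No member had an mCherry UMI, which allows a share of cells with a UMI of up to 1.61% (3 of 186) and sets no limit on cells that express it, while 60 of 596 endothelial cells had one (10.1%). Mki67, a marker of dividing cells, had 0 UMIs in members as well, which allows the same share, and a rate of 0.146 in Ptprc-positive cells. Of 5 proliferation genes compared, 0 were higher in members and 2 lower. How many mCherry transcripts a sorted cell carries was not tested.

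**Figure D3:**
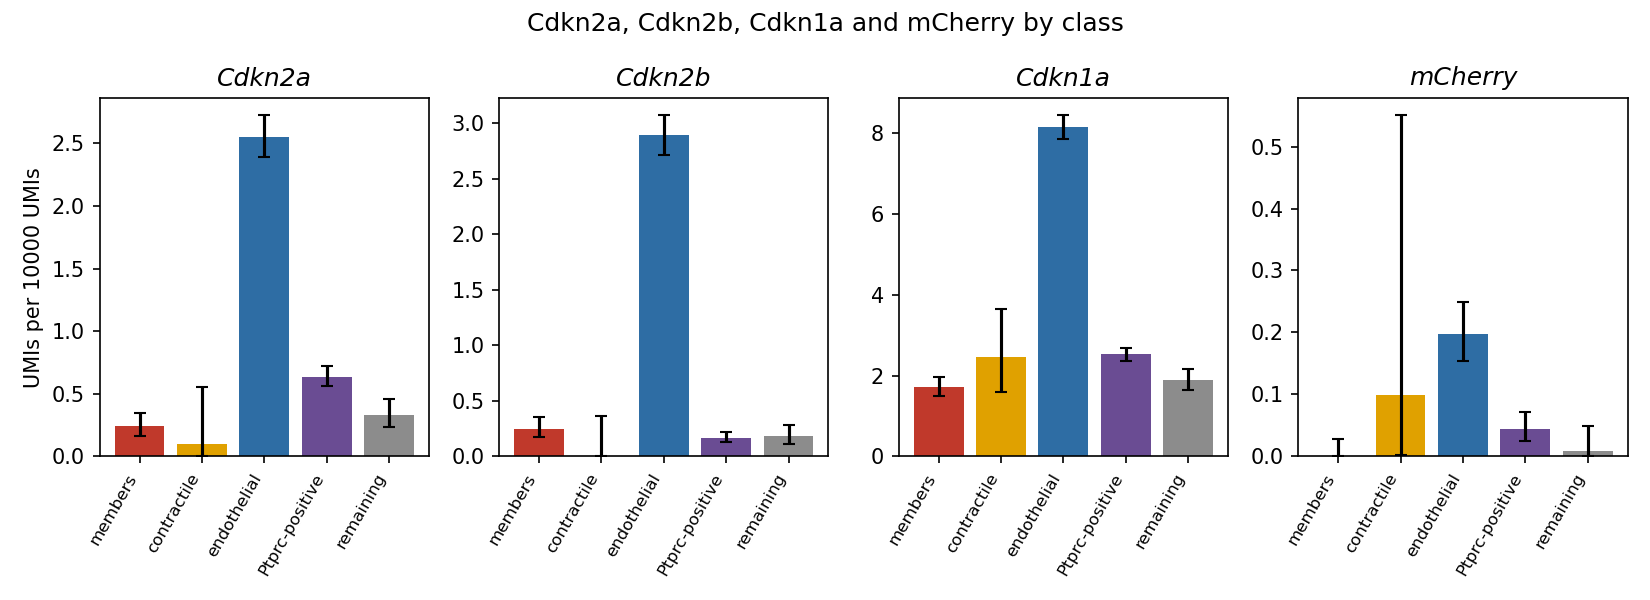
Bars give the rates of Cdkn2a, Cdkn2b, Cdkn1a and mCherry in UMIs per 10000 UMIs in each class, members at the left, and error bars are exact Poisson 95% intervals. Endothelial cells stand highest for Cdkn2a, Cdkn2b and Cdkn1a, and members have 0 mCherry UMIs; each panel has its own axis.

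The lists behind the best-known lung fibroblast types were both high in members. Of 19 alveolar genes compared 18 were at least 2-fold higher in members than in other cells and 0 lower, with a median log2 ratio of 4.77. Scn7a, a sodium channel gene, was the exception, at 2.95 (2.66 to 3.26) in members and 4.31 in other cells. Of 20 adventitial genes 16 were higher and 3 lower, with a median of 6.13. The exceptions are named because they are few. Those lower were Dpp4, a peptidase, at 0.114 (0.0637 to 0.188) in members and 0.770 in other cells, and the surface proteins Ly6a and Ly6c1, which endothelium also carries. Ly6a was at 8.42 (7.93 to 8.93) in members and 68.7 in endothelial cells, and Ly6c1 at 2.03 (1.79 to 2.28) and 47.8. Genes of the Ly6 family are alike in sequence, and how their reads were split is not known. Over all 8248 genes, members had the highest rate of the 5 classes for 1585, or 19.2%, and contractile cells had it for 1736.

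The members were then compared among themselves by genes of alveolar and adventitial fibroblasts. Each list contributed 19 genes with a UMI in at least 10% of members, and for each cell the mean z-score of the adventitial genes was taken from that of the alveolar genes. The difference ran from -1.76 to 2.69, with 91 members above 0, called the alveolar side, 95 at or below it, called the adventitial side, and 43 within 0.25 of the split. The 2 means had a Pearson r of -0.32 over the 186 cells, given as a description because the cells share libraries and the means share depth. Both sides had similar depth, with median UMIs of 6464 on the alveolar side and 6828 on the adventitial side. The split cuts a range and does not define types.

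Detection of the lists' own genes shows how far they exclude each other. Col13a1, a transmembrane collagen on chromosome 10 at 61838236 to 61979108 on the minus strand of mm10, had a UMI in 51 members. Scara5, on chromosome 14 at 65666403 to 65764826 on the plus strand, had one in 65. No member had both, where the product of their shares gives 17.8 cells, and 70 had neither. Lrat, an enzyme outside both lists, shared 38 cells with Col13a1 and 1 with Scara5. Ebf1, a transcription factor outside both lists, shared 1 cell with Col13a1 and 44 with Scara5. Npnt and Itga8, an adhesion ligand and the integrin chain that binds it, shared 30 and 42 cells with Col13a1 and 1 and 7 with Scara5. Pi16, a peptidase inhibitor used as an adventitial gene, was not exclusive: of its 131 cells 58 had Scara5 and 24 had Col13a1. Inmt was found in all 51 cells with Col13a1 and in 58 of the 65 with Scara5.

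**Figure D4:**
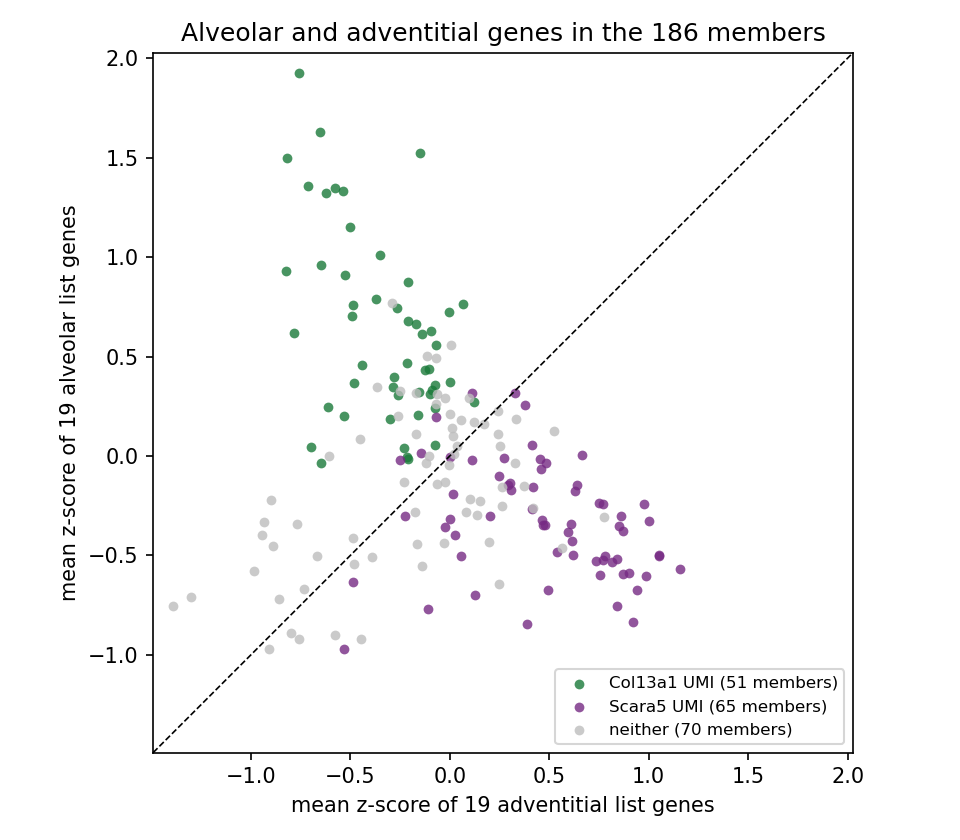
Each point is 1 of 186 members, with the mean z-score of 19 adventitial genes on the x axis and that of 19 alveolar genes on the y axis; the dashed line is the split at equal means. The 51 members with a Col13a1 UMI all lie above the line, 61 of the 65 with a Scara5 UMI lie below it, and 0 have both. Both genes are among those that set the axes, so the side on which their cells lie is no separate result.

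Over 7463 genes compared, 624 were at least 2-fold higher on the alveolar side, or 8.36%, and 448 were at least 2-fold lower, or 6%. Outside the lists that set the split the counts were 611 and 435 of 7425. The genes named next are the 10 each way with the largest ratio among those outside these lists with a UMI in at least 25% of the higher side. Notum, an enzyme that inactivates WNT ligands, had a UMI in 31 of 91 members on the alveolar side and 3 of 95 on the adventitial side, at 1.03 (0.793 to 1.31) and 0.0438 (0.00902 to 0.128). The ligands Bmp7 and Wnt4 were at 0.759 (0.559 to 1.01) and 0.853 (0.641 to 1.11) on the alveolar side, against 0.0438 (0.00902 to 0.128) and 0.0729 (0.0237 to 0.170) on the adventitial side. Lrat was at 3.95 (3.48 to 4.47) on the alveolar side and 0.204 (0.112 to 0.343) on the adventitial side. The tetraspanin Tspan8 had 49 UMIs in 27 members of the alveolar side and 0 on the adventitial side.

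Surface and matrix genes followed on the alveolar side. Lamc3, a laminin chain, was at 2.75 (2.36 to 3.19) on the alveolar side and 0.321 (0.201 to 0.486) on the adventitial side. Alcam, an adhesion molecule, was at 2.28 (1.92 to 2.68) on the alveolar side and 0.248 (0.144 to 0.397) on the adventitial side, and the potassium channel Kcna2 at 1.01 (0.779 to 1.29) and 0.102 (0.0410 to 0.210). Cyp2e1, a cytochrome that oxidises ethanol, was at 1.71 (1.40 to 2.06) on the alveolar side and 0.233 (0.133 to 0.379) on the adventitial side, and the nucleotidase-like gene Nt5dc2 at 1.44 (1.16 to 1.77) and 0.175 (0.0904 to 0.306). Intervals of the 2 sides did not overlap for any of these genes, which were picked for that difference.

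The adventitial side was led by Lsamp, a neural adhesion molecule, in 2 members of the alveolar side and 25 of the adventitial side, at 0.0316 (0.00383 to 0.114) and 0.729 (0.541 to 0.961). Ebf1 was at 0.221 (0.121 to 0.371) on the alveolar side and 3.89 (3.44 to 4.39) on the adventitial side, and Meg3 at 0.190 (0.0980 to 0.331) and 2.93 (2.54 to 3.37). Cd248, the stromal glycoprotein endosialin, was at 0.190 (0.0980 to 0.331) on the alveolar side and 2.13 (1.80 to 2.5) on the adventitial side. Ackr3, a scavenging receptor for Cxcl12, was at 0.0790 (0.0257 to 0.184) on the alveolar side and 0.977 (0.757 to 1.24) on the adventitial side, where Cxcl12 itself was at 2.26 and 4.48. Qpct, Pdlim4, Emilin2, Tmem100 and Anxa3 completed the set of 10, with ratios from 0.0625 to 0.0931. Of these, Tmem100 and Anxa3 were at 0.880 and 1.05 in members and 10.1 and 5.84 in other cells. The summed level of the 12 endothelial genes was 0 in 75 of 91 members on the alveolar side and in 64 of 95 on the adventitial side, with highest values of 5.46 and 7.41. That of the 13 immune genes was 0 in 69 and 62 members, with highest values of 4.06 and 12.1. The part of RNA from other cells in these differences was not tested.

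**Figure D5:**
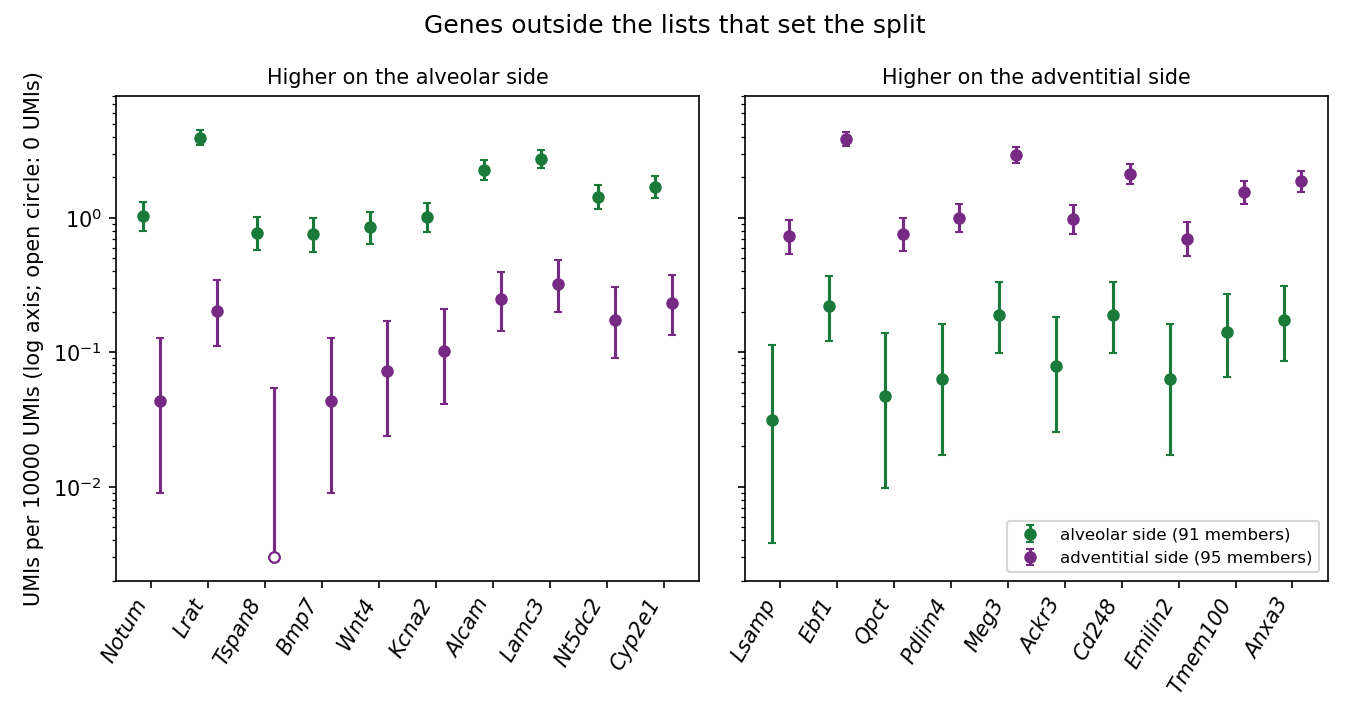
Points are rates in UMIs per 10000 UMIs on a log axis for the 10 genes each way with the largest ratio outside the alveolar and adventitial lists, alveolar side in green and adventitial side in purple, and bars are exact Poisson 95% intervals. Every pair of intervals is apart; Tspan8 has 0 UMIs on the adventitial side and is drawn as an open circle at the lower edge.

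Of 11 cytokine and chemokine genes, 2 were at least 2-fold higher on the alveolar side and 5 lower. Cxcl14 of the alveolar list and Ccl11 and Il33 of the adventitial list are among these and helped to set the split, and outside both lists 1 of 8 was higher and 3 were lower. Ccl11 was at 0.506 (0.346 to 0.714) on the alveolar side and 3.81 (3.36 to 4.30) on the adventitial side. Cxcl1 was at 0.664 (0.478 to 0.897) on the alveolar side and 3.37 (2.95 to 3.83) on the adventitial side, and Ccl2 at 0.0474 (0.00978 to 0.139) and 0.875 (0.668 to 1.13). Of 34 growth factor genes, 10 were higher on the alveolar side and 3 lower. Bmp4 was at 1.64 (1.34 to 1.99) on the alveolar side and 0.788 (0.592 to 1.03) on the adventitial side. Slit3, a guidance ligand, was at 0.853 (0.641 to 1.11) on the alveolar side and 2.33 (1.99 to 2.72) on the adventitial side.

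Of 5 fibrillar collagens, 0 were past 2-fold either way across the split, while other lists of matrix genes held some that were. Among genes outside the lists that set the split, 4 of 11 other collagens were higher on the alveolar side and 0 lower. Of 18 adhesive genes 3 were higher and 4 lower, and of 28 proteases and inhibitors 5 were higher and 4 lower. Col1a1 was at 13.0 (12.2 to 14) on the alveolar side and 16.1 (15.2 to 17.1) on the adventitial side, and Mgp, of the rule, at 253 (249.5 to 257) and 194 (191 to 198). Dcn, also of the rule, was at 34.8 (33.4 to 36.3) on the alveolar side and 141 (138 to 143) on the adventitial side, so the genes that chose the members were not level between the sides. Mmp3 was at 1.09 (0.848 to 1.38) on the alveolar side and 5.66 (5.11 to 6.25) on the adventitial side, and Aldh1a1 at 8.50 (7.80 to 9.25) and 1.41 (1.15 to 1.73).

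Several genes of stress responses stood lower on the alveolar side; Atf3 and Mt2 were picked after their values were seen. Of 29 immediate-early genes, 1 was at least 2-fold higher there and 7 lower. The stress factor Atf3 was at 1.88 (1.56 to 2.25) on the alveolar side and 6.53 (5.94 to 7.17) on the adventitial side, and Nfkbia, the inhibitor that NF-kappaB induces, at 2.15 (1.80 to 2.54) and 5.97 (5.40 to 6.57). The metallothioneins Mt1 and Mt2, which bind zinc and copper, were at 5.80 (5.22 to 6.42) and 1.19 (0.932 to 1.49) on the alveolar side, against 19.5 (18.5 to 20.6) and 5.40 (4.86 to 5.98) on the adventitial side. The part of tissue dissociation in these differences was not tested.

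Transcription factors gave 4 higher and 7 lower of 36 on the alveolar side. Tbx4 was at 1.63 (1.33 to 1.97) on the alveolar side and 0.408 (0.271 to 0.590) on the adventitial side. Ebf2 had 0 UMIs on the alveolar side and 31 on the adventitial side, and Prrx1 was at 1.22 (0.960 to 1.52) and 2.99 (2.59 to 3.43). For Cdkn2a, 3 of 91 members on the alveolar side (3.30%, 0.685% to 9.33%) and 9 of 95 on the adventitial side (9.47%, 4.42% to 17.2%) had a UMI, with overlapping intervals. For Cdkn2b the cells numbered 1 of 91 on the alveolar side (1.10%, 0.0278% to 5.97%) and 13 of 95 on the adventitial side (13.7%, 7.49% to 22.3%), intervals that do not overlap. The Cdkn2b rates were 0.126 (0.0546 to 0.249) on the alveolar side, all 8 UMIs from 1 cell, and 0.365 (0.236 to 0.538) on the adventitial side, with overlapping intervals. No Cdkn2a UMI fell in the 51 members with Col13a1, and 7 of the 12 members with one had Scara5. The products of shares give 3.29 and 4.19 cells, so with 12 cells no link to either gene was read.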

How the data were processed

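Single-cell RNA was measured in sorted lung cells of 2 samples of 1 group. The authors deposited 1 matrix of 1344 cells and 15526 genes, whose values are natural log values of UMIs per 10000 plus 1, as their exact back-transformation to whole UMIs shows (largest deviation 1.78e-10). Libraries were made with 10x Chromium v3 chemistry, per the labels' protocols, and processed with Cell Ranger 3.0.2 on mm10, per the submitters' processing notes. Which annotation and cell filters were used, and whether doublets were removed, is not given in the sources used here, and no doublet caller was run. Gene positions are from the mm10 reference annotation.

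Python 3.11.15 with numpy 2.4.6, pandas 2.3.3 and scipy 1.17.1 was used. Only the comparison of rates between members and other cells was tested on simulated counts. UMIs were recovered as counts and summed over each class, with exact Poisson 95% intervals for rates and exact Clopper-Pearson intervals for shares, which cover counting error only. A gene was compared when it had a UMI in 10% or more of the cells of 1 side, and it was called at a ratio of 2 or more. A side at 0 was set to 3 counts over the class. Both libraries had to be pooled as 1 sample, so there is no replicate check and no p-value. Depth was 2517 to 49467 UMIs per cell.

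The members and the gene lists were chosen with earlier results of these data known. Genes named are the 4 to 6 of each list with the largest ratios, the 4 with the highest level in members, the leading genes of each comparison and those of the rule and the label. A few others are named as chosen for their values or as markers (Pi16, Npnt, Scn7a, Ly6a, Ly6c1 and Masp1 among them). Alternatives changed the collagen threshold, the rule genes, the weighting, the filter, the reference, the libraries and single cells, and left out cells with 3 or more markers, at 2 or more UMIs, of 2 or more lineages.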

Additional observations from a re-analysis of the deposited data

How the results depend on the processing

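No paired analysis was possible because the cells could not be tied to the 2 samples and no test was made. Library 2 alone gave 3 members, and no comparison was made in it. Without cells with markers of several lineages, the Cdkn2a rate was 0.156 (0.247 with the contractile list not used to mark them) and 2762 genes were lower in members than in contractile cells, of which that setting leaves 6. With genes in at least 5% of cells, 2889 were lower in members than in contractile cells, and 998 were higher and 806 lower on the alveolar side. At 25%, fewer genes were compared: 719 were higher and 695 lower than in other cells, 580 were higher than in contractile cells, and 225 were higher and 143 lower on the alveolar side. Without members near the split, 1009 were higher on the alveolar side.

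Against the unweighted mean of the other 4 classes, log2 ratios turned negative for Col18a1 (-0.78), Cxcl1 (-1.08), Itga8 (-0.54) and Pdlim4 (-0.35). Against contractile cells without cells with markers of several lineages, they turned for Ackr3 (-0.20), Col5a3 (0.44), Fgf10 (-0.070), Hhip (0.42), Nt5dc2 (-0.86), Pdlim4 (0.028), Wnt4 (-1.20) and Wnt5a (-0.38). With the contractile list not used to mark such cells, Col5a3 turned (1.27). Without its top cell, Ifit3 turned (-0.63). The causes were not tested. Turns were counted only for named genes past 2-fold in the main setting, 147 of 159 against other cells and 100 of 149 against contractile cells. There were 14 such turns, and the other values of these genes kept their direction. The 2931 values of all named genes also include those within 2-fold, for which no turn was counted. Many changed in size: of 159 named genes compared with other cells, the ratio left its counting interval for 122 against the unweighted mean, 100 without cells with markers of several lineages and 72 without Mgp, as did 76 of 149 against contractile cells without such cells. Between the sides, of 61 named genes past 2-fold, Ifit3 turned without the adventitial cell that had most of it.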

Other observations

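Of the members, 7 carried 3 or more of the genes Comp, Chad, Mia, Tnn, Myoc, Angptl1 and S100b, a set chosen after its values were seen, so that their shared presence is no finding. Comp and Chad are known from cartilage and tendon matrix, Tnn is a tenascin and Myoc is the secreted protein myocilin. The cells did not carry the set evenly: Comp was in 2 of the 7, Tnn in 3, Chad in 4, Mia and S100b in 5 each and Angptl1 in 6. Myoc, one of the genes that chose them, was in 7 of the 7 cells at 40.9 (34.3 to 48.5) and in 1 of the 179 other members at 0.00778. Outside the set, Fmod and the transcription factor Sox9 were each in 2 of the 7, and in 35 and 21 of the 179. Aspn, a small proteoglycan known from cartilage and not used in the choice, was in 7 of 7 cells at 9.71 (6.64 to 13.7) and in 54 of 179 others at 1.21 (1.03 to 1.42). Wif1 was in 6 of the 7 and in 24 of the 179. Pi16, Col13a1 and Scara5 were in 0 of the 7, against 131, 51 and 65 of the 179.

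Another 3 members had a UMI of 8 to 10 of 10 mesothelial genes, the lining of the pleura, while the other members had at most 2 of them. Wif1, also counted among genes of peribronchial fibroblasts, had a UMI in 30 members. Of these 25 were on the alveolar side, 16 had Col13a1 and 1 had Scara5, where the products of shares give 8.23 and 10.5 cells.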
